A study of Mus musculus with 12 samples.

Results

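The antizyme and polyamine synthesis genes are 8 genes taken by name, out of 55487 genes in the table of input counts. They are Odc1, Oaz1, Oaz2, Azin1, Amd1, Srm, Sms and Sat1. Their transcript levels and ribosome occupancy were measured in 6 livers, 3 from wild-type (WT) mice and 3 from mice without Mettl5 (KO). Each of 3 litters gave a WT and a KO animal. METTL5 is the enzyme that methylates an adenosine of 18S rRNA, and its loss was used to ask which liver transcripts are translated differently. CMV-Cre, which acts throughout the body, had removed a floxed exon of Mettl5 in the KO mice, whose line began in hybrid C57BL/6 and 129S6 stem cells and was backcrossed to B6. Every liver was lysed with cycloheximide, which holds ribosomes in place, and gave RNA-seq of the lysate (input) and of fragments that ribosomes protected (RPF), so 4 groups of 3 libraries were available. Sex and age were not used here. The RPF of a gene divided by its input is its translation efficiency (TE). RPF values were analysed for 6 of the 8 genes, among 10607 genes with such values, and RPF values of Amd1 and Sms were not analysed here.

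Polyamines are small cations, namely putrescine, spermidine and spermine, that bind RNA and are needed for growth and for protein synthesis. Ornithine decarboxylase (Odc1) makes putrescine, S-adenosylmethionine decarboxylase (Amd1) supplies the aminopropyl donor, and spermidine synthase (Srm) and spermine synthase (Sms) use it. Antizymes (Oaz1, Oaz2) bind ornithine decarboxylase and send it to the proteasome, the antizyme inhibitor (Azin1) captures antizymes, and spermidine/spermine acetyltransferase (Sat1) starts the breakdown and export of polyamines. The pathway is a textbook case of control at the ribosome. Full-length antizyme is made only when ribosomes skip a base at a stop codon, which polyamines favour, and Amd1 and Odc1 carry short reading frames upstream of their start codons.

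In mm10 the genes lie at chr10:80826656-80829290 (Oaz1, ENSMUSG00000035242), chr9:65668001-65690300 (Oaz2, ENSMUSG00000040652), chr12:17544794-17551505 (Odc1, ENSMUSG00000011179) and chr4:148591503-148594993 (Srm, ENSMUSG00000006442) on the plus strand. On the minus strand lie chr15:38487427-38519266 (Azin1, ENSMUSG00000037458), chr10:40287458-40302188 (Amd1, ENSMUSG00000075232), chrX:157443855-157492287 (Sms, ENSMUSG00000071708) and chrX:155213132-155216449 (Sat1, ENSMUSG00000025283).

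The sequences of these control elements, read from the RefSeq mouse genome of the mm10 build with GENCODE transcripts, are shown first because the RPF values below are read against them. In mm10, the frameshift site of Oaz1 lies at chr10:80828281-80828310 and that of Oaz2 at chr9:65686258-65686287, both on the plus strand and inside the annotated coding sequence. Capitals mark the TGA stop codon, whose first base (chr10 position 80828295, chr9 position 65686272) is the one left out of the annotated coding sequence, after 68 codons in Oaz1 and 32 in Oaz2.
Oaz1 frameshift site: ctcggtggtgctccTGAtgtccctcaccca
Oaz2 frameshift site: ctctgtggtgctccTGAtgcccctcaccca
Each site also occurs, with no base changed over the 30 bases, in a processed pseudogene, an intronless copy of the transcript elsewhere in the genome. Oaz1-ps holds the Oaz1 site at chr17:17345921-17345950 (minus strand), and Oaz2-ps holds the Oaz2 site at chr3:135526420-135526449 (minus strand). The Oaz2 site also lies unchanged in the processed pseudogene Gm7543 at chr15:52259206-52259235 (plus strand).
Oaz1-ps: ctcggtggtgctccTGAtgtccctcaccca
Oaz2-ps: ctctgtggtgctccTGAtgcccctcaccca

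Upstream reading frames were read from the annotated transcript with the longest coding sequence of each gene. Oaz1, Oaz2 and Srm had 0 upstream ATG codons, with leaders of 74, 198 and 117 bases. Amd1 had 1, Odc1 and Sat1 had 2 each, Azin1 had 3 and Sms had 4, where 50.3% of 10334 genes with RPF values and an annotated leader had at least 1. Closed upstream frames, which end in a stop codon before the coding sequence starts, numbered 1 in Amd1 and Sat1, 2 in Odc1 and 3 in Azin1 and Sms. At least 2 of them were found in 23.8% of genes. The frames of at most 30 bases in the leaders of Amd1, Odc1, Azin1 and Sat1 are shown with the start and stop codons in capitals.
Amd1, chr10:40302155-40302175, minus strand: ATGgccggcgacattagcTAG
Odc1, chr12:17544921-17544947, plus strand: ATGacgacgtgctcggcgtataagTAG
Azin1, chr15:38514482-38514505, minus strand: ATGatagggggttccatctccTAA
Azin1, chr15:38501507-38501536, minus strand: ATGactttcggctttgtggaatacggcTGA
Sat1, chrX:155216271-155216285, minus strand: ATGgtgccagccTGA
The second Azin1 frame shown opened 31 bases before the Azin1 start codon and that of Amd1 317 bases before its own.

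Input libraries held 8326325 to 11825643 counted read pairs, of which 45.8% to 63.8% fell on an 18S rRNA gene, and RPF libraries held 4623826 to 9184242 reads in the normalized table. Mettl5 served as a check of the labels. It had 58.4, 47.8 and 53.1 normalized RPF reads in WT mice 1, 2 and 3 and 8.34, 5.53 and 9.56 in KO mice. Its RPF log2 fold change of −2.64 (SE 0.36) passed with limma (adjusted p 0.00504), but the value of −2.44 with KO mouse 2 left out missed the threshold (adjusted p 0.0519). Its input change of −1.59 (SE 0.46, edgeR adjusted p 0.999) and its TE change of −1.16 (limma adjusted p 0.998) did not pass. The input and TE tests thus did not call Mettl5, which had lost an exon but kept 13, 7 and 5 input counts in KO mice. This limits what their uncalled results for other genes can show, though the size of TE change to expect for Mettl5 was not known. Hepatocyte markers summed to between 19911 and 27601 CPM in WT, a unit in which counts are divided by the normalised library size, and between 21269 and 22774 in KO, and pancreatic acinar markers to at most 0.296 CPM in any library, with Cpa1 and Amy2a5 at 0. Of the 9 marker lists, only that of stellate cells did not overlap between genotypes (59.7 to 68.6 CPM in WT, 70.5 to 81.5 in KO), and its part in the results was not tested. In bulk tissue, fewer cells of a type and less RNA per cell cannot be told apart.

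The counted input of the pathway's genes differed widely in WT liver, with Oaz1 at the top and Sms at the bottom. Levels between genes are given as input CPM per kb of transcript. Oaz1 stood at 9.74, 14.5 and 14.5 in WT mice 1, 2 and 3, a mean of 12.9 ± 2.76 (SD, n = 3), above Sat1 with 6.99 ± 1.77 in every mouse. Sat1, Azin1 (6.15 ± 0.564) and Odc1 (5.23 ± 1.57) overlapped in their ranges and so were not separable by the spread between mice. Below them came Srm with 2.44 ± 0.875, Oaz2 with 1.14 ± 0.134, Amd1 with 0.673 ± 0.244 and Sms with 0.211 ± 0.0848, each lower than its predecessor in 3 of 3 WT mice without overlap.

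**Figure D1:**
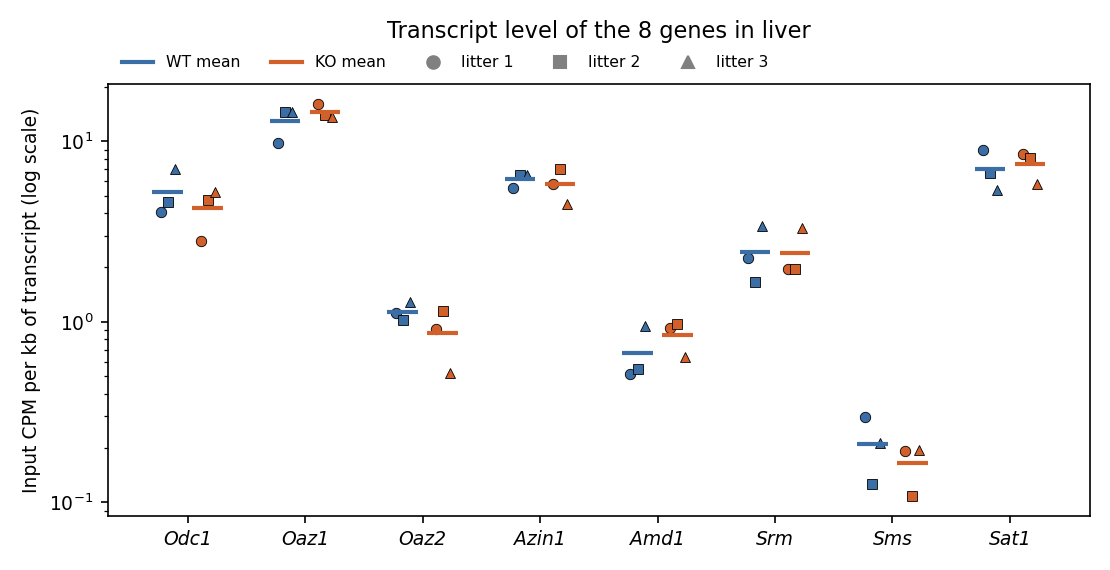
Input level of the 8 genes in each mouse, in CPM per kb of transcript on a log scale, with lines at the means of 3 mice and symbols for the litters. Oaz1 is highest in both genotypes, Sms is lowest, and WT and KO points overlap for every gene.

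The order depended partly on the length used. Per kb of all annotated exons of a gene, over which the counts were made, Oaz1 stood at 5.28 ± 1.13, Azin1 at 4.79 ± 0.439, Odc1 at 3.39 ± 1.02, Sat1 at 2.26 ± 0.573 and Srm at 2.04 ± 0.732 CPM per kb, and each of these overlapped with the next. Oaz2 at 0.703 ± 0.0825 and Amd1 at 0.608 ± 0.221 CPM per kb also overlapped, with Oaz2 higher in 2 of 3 WT mice. Sms remained lowest at 0.131 ± 0.0524 CPM per kb. The Sms level rests on 8, 4 and 8 counts in WT and 14, 4 and 6 in KO. Amd1 rests on 12, 15 and 31 counts in WT and 58, 31 and 17 in KO, so both genes were close to the limit of this depth. Both also had an exact copy elsewhere in the genome for 100% of their coding windows of 28 bases, and multimapping reads were not counted. How far this lowered their levels was not tested.

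Normalized RPF reads did not follow the normalized input reads across these genes. RPF reads that mapped to several places had been left out. Exact copies elsewhere in the genome covered 91.6% of the coding windows of Oaz1, 85.5% of Odc1 and 66.3% of Oaz2. They covered 39.3% for Sat1, 21.4% for Srm and 0% for Azin1. Low RPF reads of copied genes therefore cannot be read as low ribosome occupancy, and the part of lost reads was not tested. Odc1, the enzyme at the entry of the pathway, had 119, 136 and 206 normalized input reads in the WT mice but 5.23, 1.71 and 5.67 normalized RPF reads, which came from 6, 2 and 11 fragments. Oaz1 had 136, 202 and 202 normalized input reads and 18.3, 15.4 and 12.4 in RPF. Both genes thus had far fewer normalized reads in RPF than in input in every WT mouse. Oaz2 also had fewer, with normalized input of 27.5, 25.1 and 31.5 beside RPF of 2.61, 4.27 and 10.3. In WT mouse 3 its values came from 24 input counts and 20 RPF fragments. Azin1, a catalytically inactive relative of ornithine decarboxylase, had 358, 422 and 420 normalized input reads and 144, 181 and 175 in RPF. Srm had 40.4, 29.8 and 60.3 in input and 70.6, 57.2 and 74.8 in RPF. Sat1 had 106, 79.9 and 64.2 in input and 274, 169 and 144 in RPF, so that Srm and Sat1 were the genes with more RPF than input in all 3 WT mice.

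**Figure D2:**
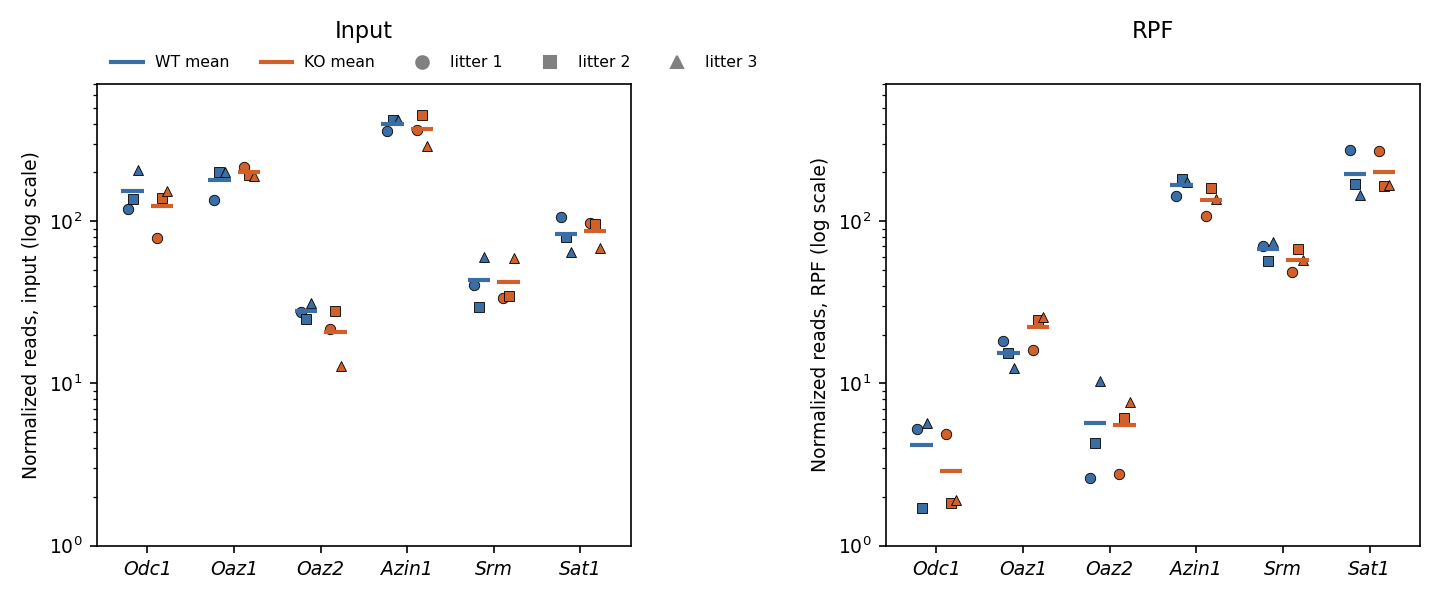
Normalized reads of the 6 genes with RPF values, input on the left and RPF on the right, on the same log scale, with lines at the means of 3 mice. Odc1 and Oaz1 lie between 78.9 and 216 in input and between 1.71 and 25.8 in RPF over the 6 mice, whereas Sat1 lies higher in RPF than in input.

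Baseline TE was compared between genes per length, with input divided by the length of the transcript and RPF by its coding length, and relative to the median level of each library. On this log2 scale the middle 50% of 8986 genes ran from −0.63 to 0.79. Oaz1 stood at −3.16, −3.96 and −4.26 in the 3 WT mice, a mean of −3.79 ± 0.57 (SD, n = 3) that corresponds to 7.21% of the library medians, and 38 of the 8986 genes were lower. Sat1 stood at 1.15, 0.88 and 0.95, a mean of 0.99 ± 0.14 or 199% of the library medians, above 80.9% of genes. These 2 of the 4 members that passed the filter on low values differed from the library medians (limma adjusted p 6.33e-09 for Oaz1 and 0.00615 for Sat1). As 57.7% of all genes tested also differed, 32.5% higher and 25.2% lower, such a call is common.

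Azin1 stood at −0.41, −0.30 and −0.35 in the WT mice, the narrowest spread of the group (mean −0.35 ± 0.055, SD, n = 3). Its 95% confidence interval of −0.75 to 0.049 included the library medians (limma adjusted p 0.123), but with input scaled by all annotated exons it stood at −0.64 and passed (adjusted p 0.00841). Genes with 3 or more closed upstream frames, as Azin1 has, had a median log2 TE of −0.22 (n = 1248), against 0.22 for genes with none (n = 5383). Srm had 0.29 ± 0.33 (95% confidence interval −0.28 to 0.85, limma adjusted p 0.371), within the middle 50% of the 5383 genes without an upstream frame (−0.44 to 0.86). Sat1, with 1 closed upstream frame, lay above the upper quartile of 0.71 of the 1609 genes that have 1.

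Oaz2 and Odc1 did not reach a mean of 10 in RPF and entered the test only without a filter on low values. On the scale of the 8986 genes, Oaz2 stood at −2.23, −1.55 and −0.77 in WT, a mean of −1.52 ± 0.73 (SD, n = 3). Odc1 stood at −4.55, −5.93 and −5.23, a mean of −5.24 ± 0.69 or 2.65% of the library medians. Each of the 6 genes thus lay below the one before it, in the order Sat1, Srm, Azin1, Oaz2, Oaz1 and Odc1, in 3 of 3 WT mice with no overlap of the ranges. Without the filter the limma estimates, centred on more genes, were −1.41 (SE 0.42, adjusted p 0.0102) for Oaz2 and −5.13 (SE 0.40, adjusted p 1.24e-07) for Odc1, so 4 of 6 members passed, where 54.5% of all genes tested in that fit did.

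**Figure D3:**
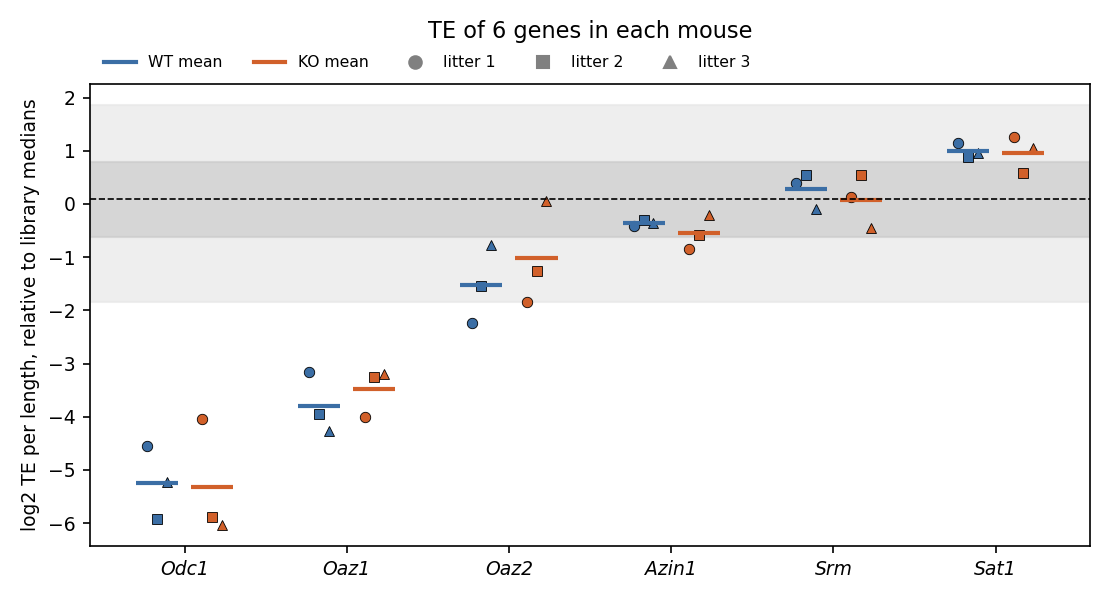
Log2 TE per length of 6 genes in each mouse, relative to library medians, with lines at the means of 3 mice. The dashed line is the median of 8986 genes, the darker band their middle 50% and the lighter band their middle 90%, and Odc1 and Oaz1 lie below both bands in all 6 mice.

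Among the 6 genes with RPF values, the 3 of lowest TE were also those with the most coding sequence copied elsewhere in the genome. RPF reads had been kept only if they mapped to 1 location with at most 2 mismatches. Each coding sequence was therefore taken in windows of 28 bases, a common fragment length, and each window was looked for elsewhere in the genome. An exact copy existed for 100% of the windows of Amd1 and Sms, 91.6% of Oaz1, 85.5% of Odc1, 66.3% of Oaz2, 39.3% of Sat1, 21.4% of Srm and 0% of Azin1. With up to 2 mismatches allowed, the share was 100% for Odc1, 96.6% for Oaz1, 91.9% for Oaz2, 89.5% for Sat1, 80.4% for Srm and 0.607% for Azin1. On that measure Sat1 and Srm, the genes of highest TE, were nearly as copied as the antizymes. By comparison, 67.0% of 10597 genes had no exact copy at all and 5.24% had one for more than 50% of their windows.

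The copies were mostly processed pseudogenes. Odc1 had 23 loci holding at least 10 of its windows, of which the largest held 753. Sms had 9, where Sms-ps held all 1071 windows, and Amd1 had 8, where the coding gene Amd2 held 947 of 975. Oaz1 had 1 (Oaz1-ps, 599 of 654 windows), Oaz2 and Sat1 had 2, Srm had 3 and Azin1 had 0. In input, Oaz1-ps received 81 counts over the 6 libraries against 950 for Oaz1, the copies of Odc1 24 against 629, and those of Sms 45 against 44. The 45 counts at Sms copies all fell on Gm7333, which held 45 of the 1071 windows, and Sms-ps received 0. Input was counted as read pairs and RPF as single short fragments.

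Across all coding genes with a mean of at least 10 input counts, 98.1% of 6357 genes without a copied window had RPF values. Among the 193 with more than 90% of windows copied, which include Amd1 and Oaz1, 47.7% did. Sms had too few input counts to be among them. Of genes that passed the filter on low values, those with more than 90% copied windows had a median log2 TE of −1.07 in WT (n = 66). Those with none had 0.13 (n = 6054). Over all genes with RPF values the medians were −1.38 (n = 100) and 0.083 (n = 7101). Oaz1 and Odc1 lay below the median of their class. For genes with an exact copy of over 50% to 90% of windows, as in Odc1, it was −0.12 after the filter (n = 344). Without the filter, which Odc1 did not pass, it was −0.22 (n = 455). Of the 39 genes at or below Oaz1 in the filtered comparison, 20.5% had more than 50% of windows copied, against 4.56% of all genes in it. The part of copies in these low values was not tested.

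The place of the antizymes changed when RPF was scaled by the windows without an exact copy in place of the coding length, an alternative chosen after the data were seen. Oaz1 moved from −3.79 to −0.31 on the log2 scale (95% confidence interval −0.74 to 0.13, limma adjusted p 0.208), so the call was lost. Without a filter on low values, Oaz2 moved from −1.41 to 0.061 (−0.80 to 0.93, adjusted p 0.91). Odc1 moved from −5.13 to −2.48 (−3.31 to −1.65) and still passed (limma adjusted p 9.02e-05). Azin1, with no copied window, stood at −0.46 in the filtered fit (adjusted p 0.0437), and Sat1 at 1.64 (adjusted p 0.00014). Under this scaling Odc1 alone of the 6 genes had an interval more than 1 log2 unit below the library medians. The scaling left out exact copies only. With up to 2 mismatches, 100% of the windows of Odc1, 96.6% of Oaz1, 91.9% of Oaz2, 89.5% of Sat1 and 80.4% of Srm had a copy. The scaling therefore cannot show where these 5 genes would stand with all such copies allowed for. The WT value of Odc1 also rests on 6, 2 and 11 fragments. The low RPF of Odc1, Oaz1 and Oaz2 under the coding-length scaling went together with copied sequence, with 1 frameshift site in each antizyme and with 2 upstream frames in Odc1, and the part of each was not tested.

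**Figure D4:**
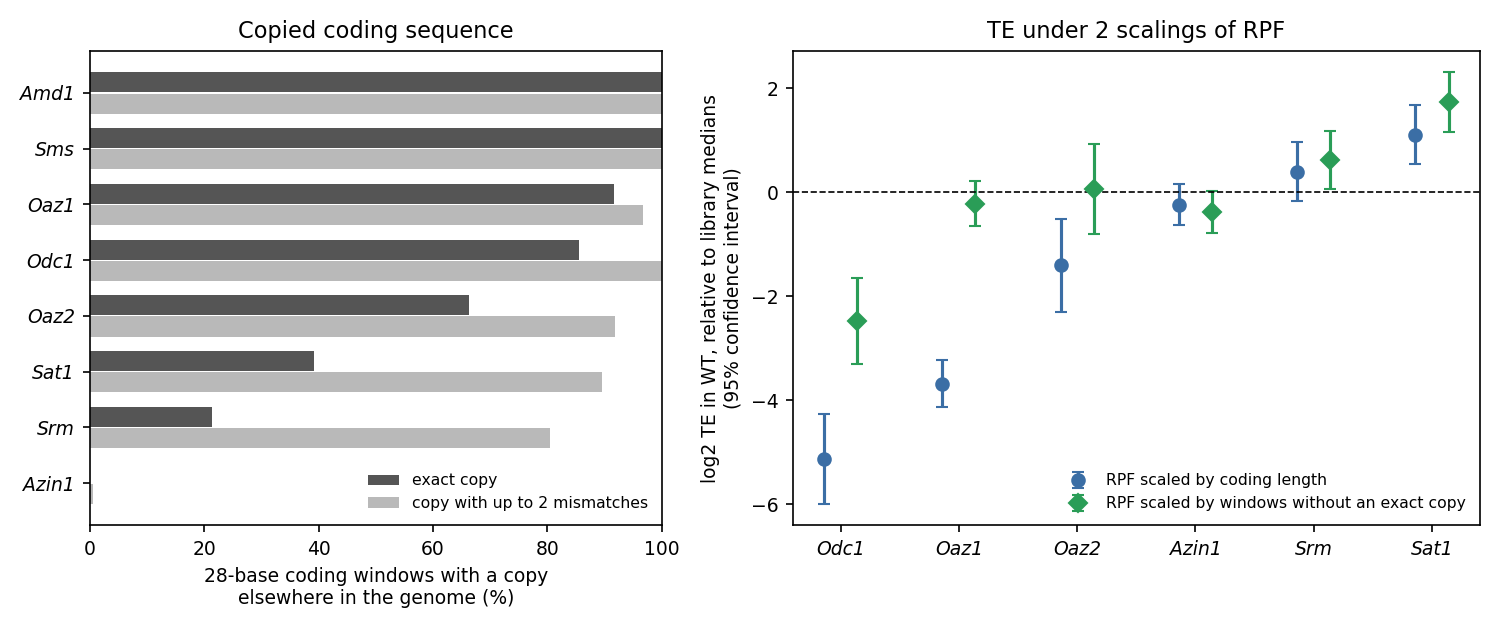
Left, percent of 28-base coding windows with a copy elsewhere in the genome for the 8 genes, exact or with up to 2 mismatches. Right, log2 TE in WT with 95% confidence intervals from limma without a filter on low values, with RPF scaled by coding length or by the windows without an exact copy; Oaz1 and Oaz2 move to near 0 and Odc1 to −2.48.

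Loss of METTL5 was not followed by a detectable change of any of these transcripts. In edgeR's quasi-likelihood test of input, 0 of 7 genes passed an adjusted p of 0.05 and 0 had an unadjusted p under 0.05, beside 0% of 10057 genes called (348 at an unadjusted p under 0.05). DESeq2 called 0 of the 8 genes. Input levels of WT and KO overlapped in 8 of 8 genes, where 8.56% of the 10057 genes tested did not overlap. The log2 fold changes ran from −0.38 (SE 0.36) for Oaz2 to 0.32 (SE 0.33) for Amd1, each with an adjusted p above 0.99. Odc1 had 8.93, 10.2 and 15.5 input CPM in WT and 6.15, 10.5 and 11.6 in KO, a log2 fold change of −0.34 (SE 0.28) that was −0.06 without WT mouse 3 and −0.071 without KO mouse 1. Oaz1 had 10.2, 15.1 and 15.2 CPM in WT and 16.9, 14.6 and 14.3 in KO, a log2 fold change of 0.18 (SE 0.18). Sms did not pass the count filter, and without one its log2 fold change was −0.30 (SE 0.65, edgeR adjusted p 0.945).

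In RPF, 0 of the 4 genes tested with limma passed and 0 had an unadjusted p under 0.05, while 0.489% of 8994 genes passed. Oaz1 came nearest to it, with 16.0, 24.6 and 25.8 normalized RPF reads in KO mice 1, 2 and 3 beside 18.3, 15.4 and 12.4 in WT. It was higher in KO in 2 of 3 litters and the groups overlapped. The log2 fold change was 0.49 (95% confidence interval −0.0078 to 0.98, limma adjusted p 0.38), and edgeR on whole reads gave 0.57 (adjusted p 0.334). Over all alternatives the Oaz1 value stayed between 0.28 and 0.70, with adjusted p-values of 0.143 to 0.791.

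Azin1 had 107, 159 and 137 normalized RPF reads in KO, lower than its WT littermate in 3 of 3 litters, though the groups overlapped. How many of all genes were lower in every litter was not counted. The RPF log2 fold change of Azin1, −0.32 (95% confidence interval −0.70 to 0.056), did not pass (limma adjusted p 0.456). With the replicate block of litter the interval was −0.63 to −0.0075 (adjusted p 0.28), while the value was −0.031 with the GC trend removed and −0.17 without KO mouse 1. RPF of Srm was 48.7, 67.0 and 57.3 in KO, a log2 fold change of −0.23 (−0.80 to 0.35). RPF of Sat1 was 272, 165 and 168, a log2 fold change of 0.057 (−0.49 to 0.61), which changed its sign when single mice were left out. Odc1 had 7, 3 and 2 RPF fragments in KO and Oaz2 had 4, 10 and 8. Without a filter their RPF log2 fold changes were −0.40 (−1.24 to 0.43) for Odc1 and 0.039 (−0.93 to 1.01) for Oaz2, with limma adjusted p of 0.731 and 0.981. Ranges of RPF overlapped in 6 of 6 genes, where 18.8% of 10607 genes did not overlap.

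TE did not detectably differ between genotypes either. With limma, 0 of 4 genes passed and 0 had an unadjusted p under 0.05, beside 0% of 8994 genes called (423 at an unadjusted p under 0.05). The log2 change in TE was 0.32 for Oaz1 (95% confidence interval −0.38 to 1.02), −0.19 for Azin1 (−0.72 to 0.35), −0.20 for Srm (−1.01 to 0.61) and −0.021 for Sat1 (−0.80 to 0.76), each with an adjusted p of 0.998. Leaving out 1 mouse moved the Oaz1 value between 0.085 (without WT mouse 3) and 0.63 (without WT mouse 1), and the Azin1 value between −0.034 (without KO mouse 1) and −0.37 (without KO mouse 3). These intervals include changes of up to about 1 log2 unit in 1 direction, and a p that misses the threshold does not show that the genotypes were alike. Without a filter, Odc1 changed by −0.074 (−1.25 to 1.11) and Oaz2 by 0.51 (−0.86 to 1.88), both with a limma adjusted p above 0.99. The RPF to input ratio of Oaz2 was higher in KO in 3 of 3 litters, at 0.095, 0.17 and 0.328 in WT and 0.128, 0.22 and 0.598 in KO. These ratios rest on 3, 5 and 20 RPF fragments in WT and 4, 10 and 8 in KO. That of KO mouse 3 came from 8 fragments and 8 input counts. The share of all genes with the same direction in every litter was not counted. Ranges of TE overlapped in 6 of 6 genes, where 12.9% of genes did not overlap.

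**Figure D5:**
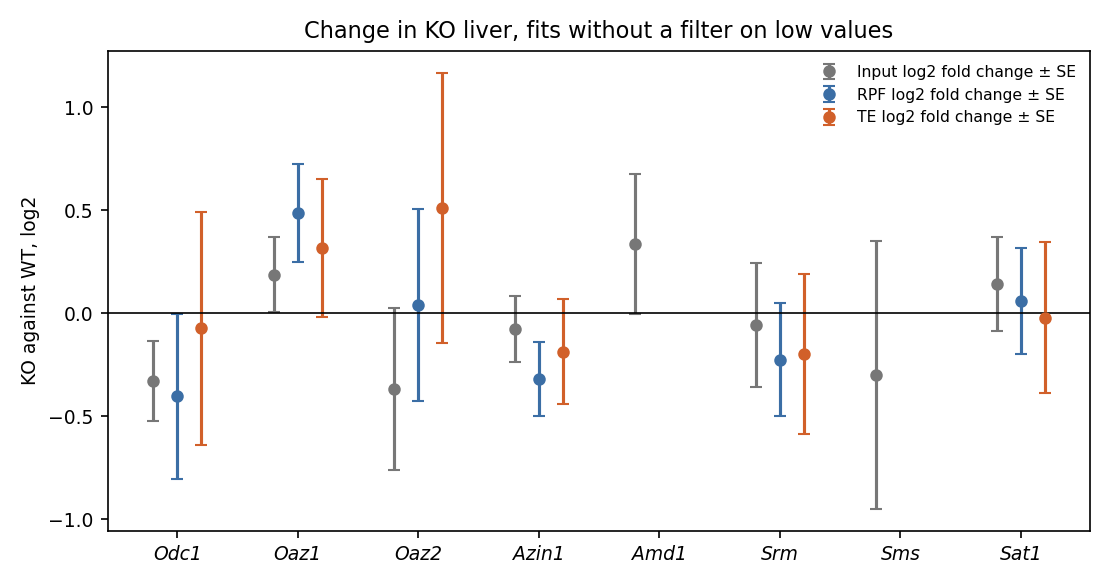
Log2 fold change of input (edgeR), RPF and TE (limma) in KO against WT with its standard error, from fits without a filter on low values. Amd1 and Sms have input values only, no gene passed an adjusted p of 0.05, and the widest errors belong to Odc1, Oaz2 and Sms.

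In KO livers the mean TE values fell in the same order as in WT, but single mice did not all keep it. Sat1 had a mean log2 TE of 0.96 ± 0.35, Srm 0.077 ± 0.51, Azin1 −0.55 ± 0.32, Oaz2 −1.02 ± 0.97, Oaz1 −3.49 ± 0.46 and Odc1 −5.32 ± 1.11 (SD, n = 3). In KO mouse 3, Oaz2 (0.052) lay above Azin1 (−0.21) and Azin1 above Srm (−0.46), and the KO ranges of Srm and Azin1 and of Azin1 and Oaz2 overlapped. Of the 4 that passed the filter, Sat1 (limma adjusted p 0.00773), Oaz1 (1.36e-08) and Azin1 (0.022) differed from the library medians in KO, where 55.9% of all genes did. That Azin1 passed in KO and not in WT does not show a difference between genotypes, as its TE change did not pass.

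Genes around the core pathway were taken as 6 lists with 37 genes. None passed in a genotype comparison, with 0 of 26 in input (edgeR), 0 of 27 in RPF and 0 of 27 in TE (limma), where 1, 3 and 0 had an unadjusted p under 0.05. Median log2 fold changes were 0.062, −0.064 and −0.15, beside −0.00037, −0.033 and −0.011 over all genes tested. Baseline TE in WT passed in 17 of 27, with 12 higher and 5 lower than the library medians, which is 63.0% of the genes beside 57.7% of all genes.

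Among genes around the supply and use of ornithine and S-adenosylmethionine, 6 of 9 were higher in baseline TE and 1 lower. Mat1a, the liver enzyme that makes S-adenosylmethionine, had 503 ± 71.4 input CPM in WT (SD, n = 3) and a log2 TE of 1.34. Gnmt, which uses up S-adenosylmethionine, had 346 ± 10.1 CPM and 1.06. In the salvage of methylthioadenosine, the by-product of Srm and Sms, 4 of 5 genes were higher and none lower. Adi1 of that route had 25.4 ± 1.54 CPM and a log2 TE of 1.87, and Mtap, which opens it, had 4.76 ± 0.686 CPM and 1.34.

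Polyamine oxidation and acetylation gave 1 higher and 1 lower of 3 tested. Sat2 had 2.37 ± 1.02 CPM and a log2 TE of 0.89, which was no longer called with the replicate block (limma adjusted p 0.0773) or without WT mouse 2 (0.70, adjusted p 0.123) or WT mouse 3 (0.92, adjusted p 0.105). Paox, the oxidase of acetylated polyamines, had 5.39 ± 1.41 CPM and a log2 TE of −1.52, and 87.6% of its windows had an exact copy. Scaled by windows without a copy, Paox turned to 1.38. Among transport genes, 1 of 7 was higher and 3 were lower, with Atp13a3 at 84.7 ± 7.0 CPM and a log2 TE of −2.12. Of the genes for hypusine, a modification of eIF5A made from spermidine, 0 of 3 passed, and Eif5a had 47.3 ± 3.56 CPM and a log2 TE of 0.014 that became 0.84 with RPF scaled by windows without a copy (limma adjusted p 9.8e-05; 45.7% of its windows had one), Dohh 1.58 ± 0.726 CPM and 0.13. The other regulators were hardly seen, Azin2 at 0.164 ± 0.0968 CPM and Oaz3 at 0 in WT, and neither was tested.

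The genes most like 3 of the members over the 12 libraries, by Pearson's r of log2(value + 1) across 10606 genes, were Rps2 (0.994) and Ndst1 (0.993) for Oaz1, Rap2c (0.99) and Ube2d3 (0.988) for Odc1, and Chpt1 (0.995) and Tmem243 (0.988) for Azin1. The 12 points are 2 assays of 6 livers, so all of these genes share the step from input to RPF. Exact copies covered 88.2% of the windows of Rps2 and 76.3% of Ube2d3, 11.8% of Chpt1 and 0% of Ndst1, Rap2c and Tmem243.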

How the data were processed

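Input and RPF libraries came from the livers of 3 WT and 3 KO mice. The authors trimmed reads with BBDuk, aligned input to mm10 with STAR 2.7.3a and deposited raw counts of read pairs over exons from featureCounts, whose version is 1.6.0 per the labels; multimapping reads were not counted. Their RPF reads (read 1, rRNA removed) were mapped by RiboToolkit to 1 location with up to 2 mismatches; whether to the genome or to transcripts is not given in the sources used here. The deposited table of 12 normalized columns is a signal of reads divided by 1 factor per library, with no length in it. In each column 100% of values were whole reads (tolerance 0.05 reads), and input columns equalled the counts in 100% of genes. Its columns of fold changes and p-values of TE were not used. Every column belonged to a sample.

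Input was tested with edgeR 4.0.16 (TMM, filterByExpr, quasi-likelihood, R 4.3.3), where SEs were derived from the fold change and the F statistic. The RPF and TE tests used limma 3.58.1 on log2(value + 1), which understates changes of low genes, and kept genes whose mean reached 10 in both assays. The model had 4 group means and took the 12 libraries as independent. For baseline TE, columns were scaled by the lengths of the GENCODE transcript with the longest coding sequence, found for 10597 of 10607 genes, and centred on the median of each library. Tests were two-sided with Benjamini-Hochberg adjustment over all genes tested, and intervals are of 95%. The design assumed normalized values, and a count model was run once whole reads were recovered. The fits were tested on simulated data. Windows were searched on both strands of the 22 assembled chromosomes.

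Members and lists were chosen with earlier results of these data known. Besides the members and Mettl5, the genes named were those passing in a genotype comparison and the 2 with the highest WT input in each list (1 of them is not reported here), and for Oaz1, Odc1 and Azin1 the 2 most alike over the libraries. Mice of a number are littermates per the labels. Littermates' deviations from their group means had correlations of 0.082 to 0.13 (input) and 0.14 to 0.24 (RPF), against −0.12 to 0.017 and −0.24 to 0.081 for mice of different litters. The alternatives were DESeq2 1.42.0 and RLE scaling, pseudocounts of 0.1 and 5, other filters and lengths, column centring, edgeR on whole reads, GC trend removal, litter or mouse as a block and each mouse left out. Added after seeing the data were library sizes without the 18S gene, whole reads without a filter and scaling by windows without a copy.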

Additional observations from a re-analysis of the deposited data

How the results depend on the processing

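Of the members, 0 passed in input, RPF or TE under every alternative run, those leaving out a mouse and the replicate block of litter included. For baseline TE in WT, 2 of 4 members passed in the main fit and 2 in each fit without 1 mouse, but 4 passed without a filter on low values (6 tested) and 4 with no scaling by length. Azin1 joined Oaz1 and Sat1 on exon unions, and stood at −0.58 (adjusted p 0.0104) and passed at a mean of at least 50. With the replicate block of litter 2 passed, and the block changed no member's call. Among the pathway lists it lost Sat2 and gained Oat (limma adjusted p 0.051 without and 0.000618 with it), the latter named after its values were seen. Of 475 values of 39 results for single genes, 437 kept their direction and side of the threshold, 25 reversed, 7 passed anew and 6 no longer passed.

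Reversed values were uncalled except where said. Leaving out mice turned the input change of Srm to 0.27 (without WT mouse 3), 0.093 (KO mouse 1) and 0.041 (KO mouse 2), of Azin1 to 0.053 (KO mouse 3) and of Sat1 to −0.044 (WT mouse 3), the RPF change of Sat1 to −0.021 (WT mouse 2), −0.13 (WT mouse 3) and −0.18 (KO mouse 1), and the TE change of Srm to 0.058 (KO mouse 3) and of Sat1 to 0.061 (WT mouse 1) and 0.18 (KO mouse 2). At the other end, fits without 1 mouse gave input changes of −0.34 for Srm, −0.24 for Azin1 and 0.33 for Sat1, an RPF change of 0.33 for Sat1, TE changes of −0.43 for Srm and −0.17 for Sat1, and baseline values of 0.51 for Dohh and 0.11 for Eif5a. Input changes moved by over 1.5 times without changing sign for Amd1 (0.18 without WT mouse 1 to 0.68 without WT mouse 3), Oaz1 (0.016 without WT mouse 1 to 0.27 without WT mouse 3) and Oaz2 (−0.17 without KO mouse 3 to −0.59 without KO mouse 2), and the RPF change of Srm ran from −0.11 (KO mouse 1) to −0.34 (WT mouse 2). Removal of the GC trend, with or without the replicate block, turned TE changes of Sat1 to 0.14 and Azin1 to 0.034. The RPF change of Oaz2 was −0.19 with edgeR on whole reads. Baseline TE turned to −0.11 for Srm and −0.014 for Dohh on exon unions, to −0.54 (called) for Eif5a with no scaling by length, to −0.29 for Dohh without WT mouse 3 and to −0.22 for Eif5a at a mean of at least 50 or −0.12 without WT mouse 1. Scaled by windows without a copy, Oaz2 turned to 0.061 and Paox to 1.38, or 1.46 without a filter (both called), and Eif5a rose to 0.84, or 0.92 without a filter (both called). The cause was not tested.

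Genes called among all genes moved more. The input count of 0 was 1 with DESeq2, 30 with no count filter, 2 with the replicate block and 2 with limma, and 0 to 21 without 1 mouse (21 without KO mouse 2). The RPF count of 44 was 236 with the replicate block, 10 after GC removal, 72 with edgeR on whole reads and no filter, and 0 to 226 without 1 mouse (0 without KO mouse 2, 226 without KO mouse 1). The TE count of 0 was 1 with the replicate block. The baseline count of 5188 was 3262 at a mean of at least 50. Depth limits Odc1 and Oaz2 in RPF most, with as few as 2 and 3 fragments in a library.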

Other observations

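Ahcy, which clears the by-product of methylation by S-adenosylmethionine and was named after its values were seen, had the lowest baseline TE of the pathway lists, at −5.67 on the log2 scale (limma adjusted p 0.00173). An exact copy existed for 98.7% of its coding windows. Its RPF change in KO was −0.59 (SE 1.16, limma adjusted p 0.87) and became −2.20 (adjusted p 0.000549) without WT mouse 1. Its 3 WT livers had 1, 81 and 76 RPF fragments, and its 3 KO livers had 13, 17 and 13, so 1 library decided this value.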
